A study of Mus musculus with 12 samples.

Results

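The interaction of the AEG1 and MYC transgenes in mouse liver was measured as the difference between 2 differences: how far adding AEG1 moved a gene in livers that already carried MYC, minus how far it moved the same gene in livers without MYC. All 12 libraries of the series enter this contrast (12 of 12), as 3 wild type (WT), 3 AEG1, 3 MYC and 3 AEG1_MYC livers. AEG1 livers carried the Alb/AEG-1 transgene alone, MYC livers the Alb/c-Myc transgene alone, and AEG1_MYC livers carried both. The mice were untreated adults from a cross of heterozygotes of the 2 lines, so every transgene copy came from a heterozygous parent, and WT mice came from the same cross. The albumin promoter (Alb) drives expression in hepatocytes. The labels give no sex, age in days, litter, time of collection or batch, and replicates 1 to 3 are names in accession order that pair no animals. The series is about cooperation of the 2 genes in liver tumour formation.

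AEG-1, the product of Mtdh, is a scaffold protein of the endoplasmic reticulum and nucleus that is often overexpressed in liver cancer. c-Myc is a transcription factor that pairs with Max on E-box sequences and drives growth and proliferation. Beta-catenin signalling, another pathway often active in liver tumours, sets the zones of the healthy lobule: hepatocytes around the central vein receive Wnt signals and express glutamine synthetase and related genes, and those around the portal vein do not.

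Reads in genes ran from 21931197 to 40552316 per library. Of 22609 genes, 13684 passed the filter on low counts and were tested. AEG1_MYC replicates 1 and 2 stood apart from the other libraries, with scores of 34.1 and 99.2 on the first principal component against -27.2 to 10.7 in the other 10. In log2 CPM (counts brought to a common library total by TMM), AEG1_MYC replicate 1 correlated with the rest at a mean of 0.955, replicate 2 at 0.923 and each further library at 0.968 to 0.972. Summed CPM of 6 hepatocyte markers was 97958 to 107175 in WT, 63175 to 84361 in the livers with 1 transgene, and 50436, 33422 and 67773 in AEG1_MYC replicates 1 to 3. The 6 markers did not move alike. Mean CPM in WT, AEG1, MYC and AEG1_MYC livers was 5759, 4086, 3637 and 4776 for Apoa1. For Ttr it was 5152, 5129, 4479 and 3159. Apoa1 and Ttr are a small part of the sum, so it mostly reflects more abundant members of the list. Of the 6, 3 had an interaction above 0 and 3 below, with a median of 0.000631, and 5 were above when AEG1_MYC replicate 2 was left out. The sum therefore does not describe the 6 markers as a set. The part of the fall in summed CPM in the results below was not tested. In bulk liver, fewer cells of a type and less RNA per cell cannot be told apart.

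Myc marked the MYC label in every library. It stood at 4.73, 2.79 and 2.26 CPM in WT, 3.93, 3.54 and 4.59 in AEG1, 23.4, 30.5 and 53.8 in MYC, and 73.0, 165 and 58.4 in AEG1_MYC livers. All 6 libraries labelled as MYC carriers lay above all 6 others, and all 3 AEG1_MYC libraries above all 3 MYC libraries. From the single-transgene livers, 44.1 CPM would be expected in AEG1_MYC livers, and 98.8 were observed. The interaction of Myc was 1.16 ± 0.62 (log2 ± SE) and did not pass the test (adjusted p = 0.591). Mouse Mtdh was 97.2 to 100.3 CPM as a mean of each genotype, with an interaction of 0.05 ± 0.14 (adjusted p = 0.936). The labels do not give the species of the AEG-1 transgene, so Mtdh counts do not check the AEG1 label.

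Only Nkd1, Tlr12 and Gm106 passed the interaction test over all genes (edgeR quasi-likelihood, adjusted p under 0.05), and all 3 were above the level that the single transgenes predict. That is 0.0219% of the 13684 genes tested, with 0% (0 genes) called below expectation. At an unadjusted p under 0.05 there were 776 genes above (5.67%) and 490 below (3.58%), and DESeq2 called 126 above (0.921%) and 26 below (0.190%). The interaction was at least 1 in size, a factor of 2 away from expectation, in 1332 genes (9.73%), of which 816 (5.96%) were above and 516 (3.77%) below. Over all genes its median was 0.00986 and its median SE was 0.294. In the same fit 0 genes were called for AEG1 against WT (0%) and 0 for MYC against WT (0%), with 536 and 475 at an unadjusted p under 0.05. AEG1_MYC against MYC gave 28 called genes, all higher (0.205%), and AEG1_MYC against AEG1 gave 41 higher (0.300%) and 3 lower (0.322% together). AEG1_MYC against WT gave 35 higher (0.256%) and 1 lower (0.00731%).

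The count of 3 rested on the libraries used. It was 1 (Nkd1) without any 1 of the 3 WT or the 3 AEG1 libraries, without MYC replicate 1 or without AEG1_MYC replicate 2. It was 2 without MYC replicate 2 (Nkd1 and Tlr12) or MYC replicate 3 (Nkd1 and Ces2c). Without AEG1_MYC replicate 1 it was 3, with Rnf43 beside Nkd1 and Tlr12 and without Gm106. Without AEG1_MYC replicate 3, the library nearest to the other genotypes, it was 32, with 28 above (0.202%) and 4 below expectation (0.0288%, together 0.230% of 13891 genes). With AEG1_MYC replicates 1 and 2 both left out, Nkd1 alone was called. A clock score (night-phase minus day-phase clock genes, as mean z-scores) was 1.13 to 2.01 in the 3 AEG1_MYC libraries, -1.17 to 0.781 in WT, -2.28 to 2.12 in AEG1 and -2.40 to 1.41 in MYC, and with it as a covariate Nkd1 alone was called, while the interactions of Tlr12 and Gm106 stood at 1.81 and 4.54, close to the 1.86 and 4.65 without it.

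The 250 bases before the transcription start are shown for 5 of the genes with the lowest interaction p, as sequence context for the results that follow: Nkd1 and Tlr12 as the called genes with an entry, Slc1a2 and Sp5 with a TCF/LEF match, and Onecut1 with an E-box match. They are RefSeq sequences of build GRCm38.p6, written from 5′ to 3′ on the gene's strand, from chr8:88527383-88527632 (plus strand, Nkd1), chr4:128618620-128618869 (minus, Tlr12), chr2:102706188-102706437 (plus, Slc1a2), chr2:70474673-70474922 (plus, Sp5) and chr9:74861671-74861920 (plus, Onecut1). Capitals mark the TCF/LEF motif CTTTGAT or its reverse complement ATCAAAG, or the Myc E-box CACGTG.
Nkd1: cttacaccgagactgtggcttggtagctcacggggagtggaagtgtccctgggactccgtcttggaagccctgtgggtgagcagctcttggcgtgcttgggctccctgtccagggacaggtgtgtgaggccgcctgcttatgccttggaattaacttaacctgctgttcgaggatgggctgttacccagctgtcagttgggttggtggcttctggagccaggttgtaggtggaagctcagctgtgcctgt
Tlr12: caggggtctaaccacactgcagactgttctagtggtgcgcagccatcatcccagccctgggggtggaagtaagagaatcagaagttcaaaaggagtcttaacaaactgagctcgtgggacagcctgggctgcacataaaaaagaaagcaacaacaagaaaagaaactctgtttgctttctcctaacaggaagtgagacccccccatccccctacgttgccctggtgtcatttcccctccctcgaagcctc
Slc1a2: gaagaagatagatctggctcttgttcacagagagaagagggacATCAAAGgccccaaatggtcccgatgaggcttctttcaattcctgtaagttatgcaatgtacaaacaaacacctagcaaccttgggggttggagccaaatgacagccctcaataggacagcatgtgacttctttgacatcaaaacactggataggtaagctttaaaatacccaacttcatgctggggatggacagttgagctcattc
Sp5: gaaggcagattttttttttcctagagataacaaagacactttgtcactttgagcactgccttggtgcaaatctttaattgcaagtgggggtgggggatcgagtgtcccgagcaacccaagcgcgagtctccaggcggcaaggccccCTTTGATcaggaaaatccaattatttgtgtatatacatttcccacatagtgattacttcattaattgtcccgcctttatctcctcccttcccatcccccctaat
Onecut1: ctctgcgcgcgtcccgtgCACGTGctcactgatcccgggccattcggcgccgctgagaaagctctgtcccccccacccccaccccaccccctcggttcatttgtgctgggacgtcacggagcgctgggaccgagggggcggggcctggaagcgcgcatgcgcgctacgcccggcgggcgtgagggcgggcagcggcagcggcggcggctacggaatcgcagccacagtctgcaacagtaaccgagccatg

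Among 24 promoter entries of 19 of the 24 genes with the lowest p, 3 held the TCF/LEF motif (12.5%), those of Slc1a2, Sp5 and 1 of 4 Arhgef3 entries, and 3 held the E-box (12.5%), those of Onecut1, Mfsd7c and 1 of 2 Abcc4 entries. Over 13735 promoter entries of tested genes the shares were 2.27% and 8.05%. Both strands were searched, and the E-box reads the same on both. Neither motif is in the windows of Nkd1 and Tlr12. A match is a description of letters only.

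Nkd1 encodes Naked cuticle 1, which binds Dishevelled and dampens Wnt signalling, and is itself a Wnt target gene. It stood at 7.14, 5.86 and 5.55 CPM in WT, 5.77, 5.68 and 5.72 in AEG1, 4.39, 5.27 and 4.32 in MYC, and 59.9, 83.9 and 66.2 in AEG1_MYC livers. The 9 libraries with at most 1 transgene lay between 4.32 and 7.14, and all 3 AEG1_MYC libraries lay far above them. AEG1 moved Nkd1 by -0.11 ± 0.15 in the absence of MYC and by 3.91 ± 0.16 in its presence, an interaction of 4.02 ± 0.21 (adjusted p = 1.95e-05). The observed 70.0 CPM was 16.2 times the expected 4.31 CPM. In each AEG1_MYC mouse the level exceeded expectation, by 3.77, 4.26 and 3.92. Nkd1 was the only gene called in every one of the other settings and left-out libraries tried, with an interaction of 3.87 to 4.13 when 1 library was left out.

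Tlr12 encodes a Toll-like receptor of endosomes that senses profilin of protozoan parasites. It stood at 16.8, 14.4 and 13.8 CPM in WT, 7.56, 7.81 and 9.04 in AEG1, 10.1, 13.7 and 11.4 in MYC, and 19.6, 25.1 and 24.3 in AEG1_MYC livers. The AEG1 libraries were the lowest, the AEG1_MYC libraries the highest, and no 2 genotypes overlapped. AEG1 moved Tlr12 by -0.88 ± 0.15 without MYC (adjusted p = 0.836) and by 0.98 ± 0.15 with it (adjusted p = 0.0311). The interaction was 1.86 ± 0.21 (adjusted p = 0.0221), and the observed 23.0 CPM was 3.63 times the expected 6.35 CPM. The part of the interaction that comes from the AEG1 livers is nearly as large as the part that comes from the AEG1_MYC livers.

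The call for Tlr12 did not hold in most fits with 11 libraries. Its adjusted p was 0.0580, 0.0587 and 0.0717 without WT replicates 1, 2 and 3, 0.135, 0.150 and 0.0612 without AEG1 replicates 1, 2 and 3, 0.0701 and 0.0899 without MYC replicates 1 and 3, and 0.0777 without AEG1_MYC replicate 2. It was 0.0267 without MYC replicate 2, and 0.0198 and 0.0152 without AEG1_MYC replicates 1 and 3. The interaction itself stayed between 1.77 and 1.99 in these 12 fits.

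Gm106, named Sbspon in RefSeq, encodes a secreted protein with somatomedin B and thrombospondin domains. It stood at 0.214, 0.383 and 0.299 CPM in WT, 0.251, 0.243 and 0.351 in AEG1, 0.242, 0.279 and 0.369 in MYC, and 10.01, 8.30 and 3.72 in AEG1_MYC livers. The 9 other libraries were under 0.4 CPM, and the lowest AEG1_MYC library was far above them. The interaction was 4.65 ± 0.60 (adjusted p = 0.0476), and the observed 7.35 CPM was 25.1 times the expected 0.293 CPM. Leaving out any 1 library other than AEG1_MYC replicate 3 ended the call. The adjusted p was then 0.0580, 0.0967 and 0.117 without the WT libraries in turn, 0.154, 0.152 and 0.0869 without the AEG1 libraries, 0.131, 0.160 and 0.105 without the MYC libraries, and 0.0847 and 0.127 without AEG1_MYC replicates 1 and 2. Without AEG1_MYC replicate 3 it was 0.00258. The interaction itself stood between 4.37 and 4.97 in these 12 fits.

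**Figure D1:**
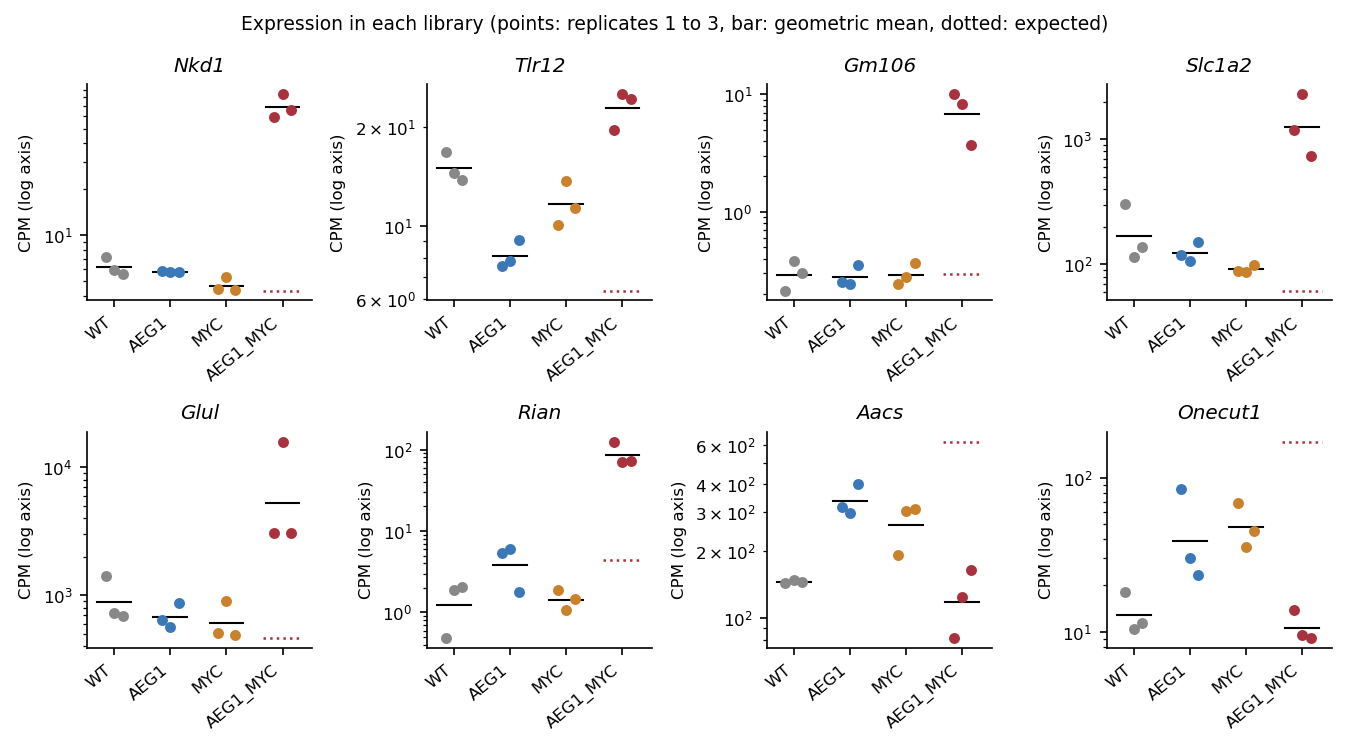
CPM on log axes for 8 genes in the 12 libraries, grouped by genotype, with points for replicates 1 to 3, a bar for the geometric mean and a dotted line for the AEG1_MYC level expected from the single transgenes. Nkd1 stands at 59.9 to 83.9 CPM in AEG1_MYC livers over a dotted line at 4.31, while Aacs and Onecut1 stand under theirs.

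The 24 genes with the lowest interaction p and a mean of at least 1 CPM were taken by rank, so what follows on the other 21 describes them and adds no support. Of the 24, 22 were above expectation and 2 below, and all 24 deviated in 1 direction in all 3 AEG1_MYC mice. In 21 of them the 3 AEG1_MYC libraries lay above all 9 others, as in 3.04% of all genes, and in 0 below them, as in 2.03% of all genes. Adjusted p ran from 0.0521 to 0.259 for the 21 uncalled genes. In the plot of expected against observed levels, the filled marks of the genes above expectation lie to the right of the open marks.

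**Figure D2:**
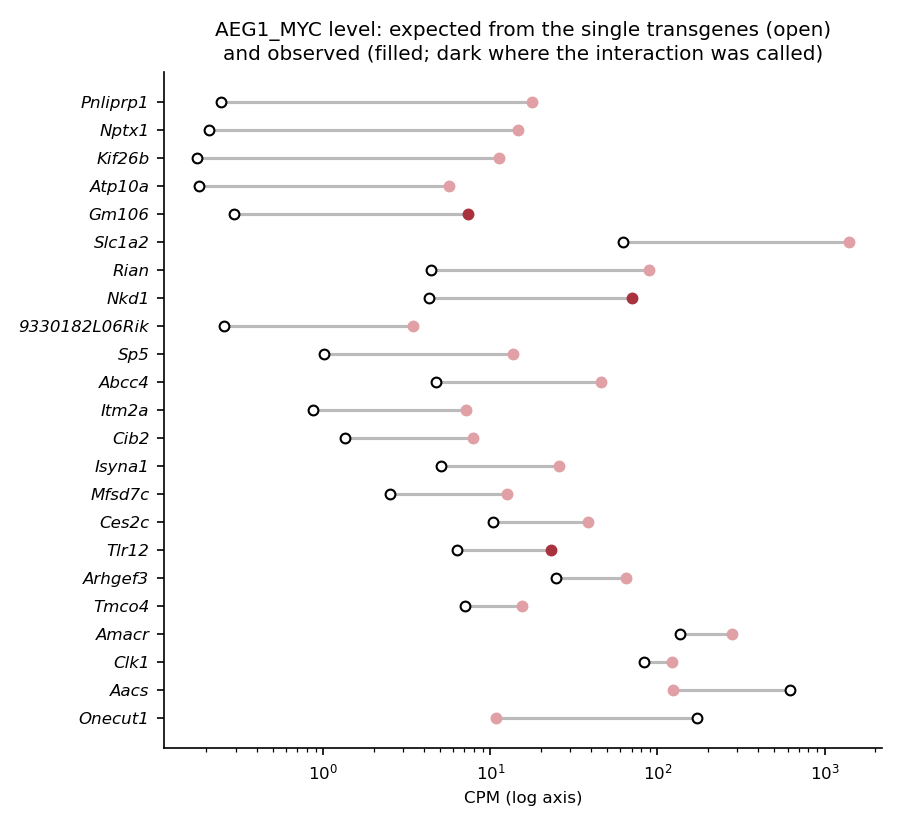
AEG1_MYC level of 23 of the 24 genes with the lowest interaction p, in CPM on a log axis, expected from the single transgenes (open) and observed (filled, dark for the 3 called genes). The distance is a factor of 16.2 for Nkd1 and 72.1 for Pnliprp1, and the marks are reversed for Aacs and Onecut1.

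Transporters and membrane proteins made up several of the 21. Slc1a2, the glutamate transporter of pericentral hepatocytes, stood at 302, 114 and 138 CPM in WT, 120, 106 and 150 in AEG1, 88.0, 87.6 and 98.1 in MYC, and 1185, 2292 and 742 in AEG1_MYC livers. Every AEG1_MYC library was above every other, and the interaction was 4.51 ± 0.62 (adjusted p = 0.0521). Abcc4, an efflux pump for bile salts and cyclic nucleotides, stood at 1.99 to 4.87 CPM in the 9 libraries with at most 1 transgene and at 53.6, 67.7 and 15.5 in AEG1_MYC livers, with an interaction of 3.28 ± 0.66 (adjusted p = 0.259). For both genes AEG1_MYC replicate 3 was the lowest of its group. Mfsd7c, named Flvcr2 in RefSeq, is a choline transporter and stood at 2.82 to 6.58 CPM in the 9 and 9.75 to 18.1 in AEG1_MYC livers. Atp10a, a phospholipid flippase, went from at most 0.854 CPM in the 9 to 7.10, 8.15 and 1.64.

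Enzymes of lipid and small-molecule metabolism formed another part. Pnliprp1, a relative of pancreatic lipase, was at most 0.251 CPM in the 9 libraries and 11.5, 26.1 and 15.5 in AEG1_MYC livers (interaction 6.17 ± 1.02, adjusted p = 0.111). Of 6 pancreatic acinar markers in the files, 4 were under 1 CPM in all 12 libraries, with Cpa1 and Prss2 at 0, and the summed CPM of the 6 was 14.6 to 42.8 in AEG1_MYC and 36.4 to 58.6 in WT livers. Nearly all of this sum was Cela1, at 17.5, 14.6 and 42.8 CPM in AEG1_MYC livers, so it describes 1 gene. Ces2c, a carboxylesterase of a family with near-identical copies, stood at 14.8 to 18.9 CPM in WT, 16.4 to 18.9 in AEG1, 8.50 to 13.4 in MYC and 31.8 to 43.0 in AEG1_MYC livers. Its interaction was 1.88 ± 0.27 (adjusted p = 0.0521). Amacr, the racemase of branched-chain fatty acid and bile acid side-chain oxidation, was abundant throughout: 148 to 199 CPM in the 9 and 243, 329 and 266 in AEG1_MYC livers. Its observed level was 2.04 times the expected one. Isyna1, which makes inositol phosphate from glucose phosphate, had 30.7, 33.9 and 12.9 CPM in AEG1_MYC livers over 3.90 to 7.55 in the 9.

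Further genes among the 21 are known from neurons, the cytoskeleton or regulation, and their genotypes did not all stand in the same order. Nptx1, neuronal pentraxin 1, was 1.61 to 3.97 CPM in WT, 0.0971 to 1.03 in AEG1, 0.484 to 1.64 in MYC and 17.5, 17.4 and 8.76 in AEG1_MYC livers. Both single-transgene means were under the WT mean, so the expected level was 0.208 CPM and the observed level 70.1 times that (adjusted p = 0.0685). Kif26b, a kinesin, was at most 0.671 CPM in the 9 and 5.58, 22.4 and 5.62 in AEG1_MYC livers. The calcium-binding Cib2 stood at 1.45 to 3.97 CPM in the 9 and at 7.47, 10.4 and 5.65. Itm2a, a membrane protein, stood at 0.366 to 1.43 CPM in the 9 and at 6.57, 8.98 and 5.75. Clk1, a kinase of splicing factors, had the smallest interaction of the 24, 0.57 ± 0.12, with 121, 126 and 121 CPM against 86.7 to 115. Arhgef3, a guanine nucleotide exchange factor, had an interaction of 1.38 ± 0.25, with 53.9 to 76.3 CPM in AEG1_MYC livers and 27.4 to 53.1 elsewhere. The transcript 9330182L06Rik, Elapor2 in RefSeq, had an interaction of 3.76 ± 0.52 (adjusted p = 0.0521), and Tmco4 one of 1.14 ± 0.18 (adjusted p = 0.0862). In Tmco4 the AEG1_MYC libraries, at 14.9 to 16.3 CPM, lay within the WT range of 13.9 to 18.1, and the single-transgene libraries lay below, at 8.93 to 11.4.

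Aacs and Onecut1 were the 2 genes below expectation, and in both the single transgenes stood above WT while AEG1_MYC did not. Aacs, the cytosolic acetoacetyl-CoA synthetase that turns ketone bodies to lipid synthesis, stood at 143, 148 and 146 CPM in WT, 316, 298 and 400 in AEG1, 193, 302 and 310 in MYC, and 81.5, 125 and 164 in AEG1_MYC livers. The AEG1_MYC range included the WT range and lay under both single-transgene ranges. The expected level was 622 CPM and the observed one 123 CPM, an interaction of -2.33 ± 0.35 (adjusted p = 0.0706). Onecut1, the hepatocyte and bile duct transcription factor HNF6, stood at 18.2, 10.4 and 11.4 CPM in WT, 84.8, 29.9 and 23.2 in AEG1, 69.0, 35.4 and 45.4 in MYC, and 13.9, 9.51 and 9.15 in AEG1_MYC livers. All 6 single-transgene libraries were above all WT and all AEG1_MYC libraries, which overlapped each other. Its interaction was -3.98 ± 0.67 (adjusted p = 0.120), with 10.9 CPM observed and 172 expected. DESeq2 called both, and edgeR called Aacs in the fit without AEG1_MYC replicate 3.

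The fold changes of AEG1 without and with MYC can be set side by side for every gene, within the limits of their error. The fold changes of AEG1 minus WT and of AEG1_MYC minus MYC come from 6 libraries each and share none. Over 13684 genes Pearson's r was 0.0758 and Spearman's rank correlation 0.0289, and 6920 genes (50.6%) had the same sign. Over the 8101 genes with a mean of at least 10 CPM, r was 0.0916, the rank correlation 0.00819 and the share of equal sign 49.9%. The SD of the fold changes was 0.397 without MYC and 0.629 with it. For MYC without and with AEG1, r was 0.142, the rank correlation 0.0706 and the share of equal sign 51.6%. Over the genes with a mean of at least 10 CPM these were 0.0228, -0.00311 and 50.6%. These are descriptions across genes of the same 12 libraries, and genes are not independent replicates. With 0 genes called for AEG1 against WT, and a median SE of 0.208 beside an SD of 0.397, many of the fold changes without MYC are within their error. How far such error lowered r was not measured, so the low r does not show that the effects of AEG1 with and without MYC were unrelated.

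**Figure D3:**
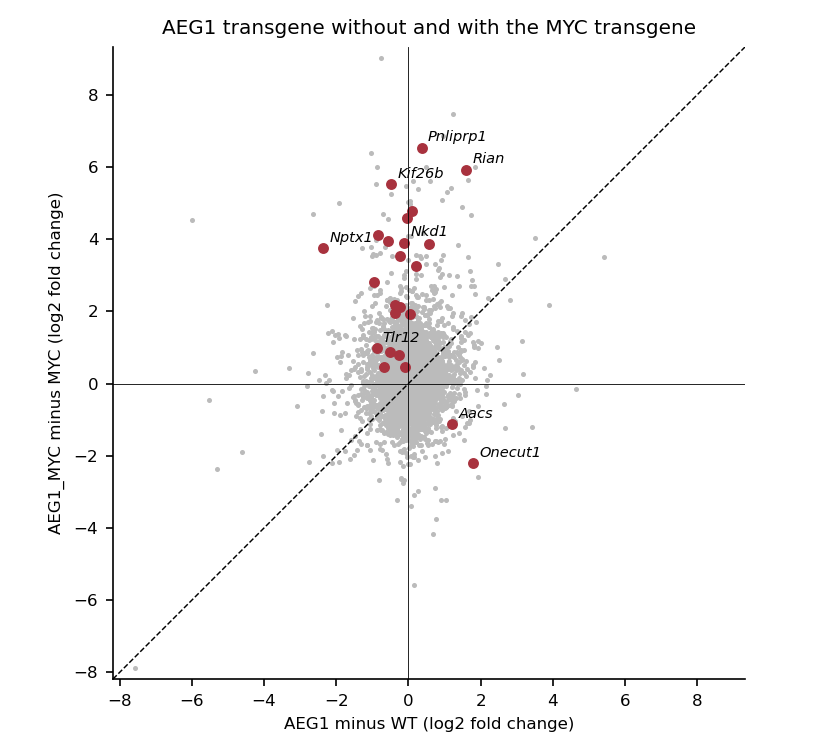
Log2 fold change of AEG1_MYC minus MYC against that of AEG1 minus WT for each gene tested, with the dashed line where both are equal, so that the height over the line is the interaction, and red points for the 24 genes with the lowest interaction p. Nkd1 lies at -0.11 and 3.91, and r over all genes is 0.0758, with a median SE of 0.208 for the fold changes without MYC.

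Wnt target and feedback genes were more often above expectation than genes at large. Of 23 measured genes of the Wnt list, 18 were above 0 and 5 below, where 51.1% of all genes were above 0. Among the 23, 9 had an unadjusted p under 0.05, all above (39.1%, against 9.25% of all genes), and 1, Nkd1, was called. The median interaction was 0.80. Sp5, a transcription factor induced by Wnt signals, stood at 1.71 to 2.99 CPM in WT, 0.904 to 1.84 in AEG1, 1.14 to 2.56 in MYC and 7.30, 25.3 and 8.38 in AEG1_MYC livers. Its interaction was 3.75 ± 0.73 (adjusted p = 0.231). Axin2, a scaffold of the destruction complex and classical feedback target, stood at 11.96 to 17.3, 6.78 to 12.7 and 6.88 to 23.3 CPM in the first 3 groups and at 28.4, 70.4 and 34.8 in AEG1_MYC livers (2.38 ± 0.68, adjusted p = 0.372). Lgr5, the receptor for R-spondins, stood at 14.3, 73.9 and 15.9 CPM in AEG1_MYC livers and at up to 13.8 CPM elsewhere (3.31 ± 0.87, adjusted p = 0.360). Replicate 2 was the highest of the group in each of these genes.

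Other feedback inhibitors showed smaller values. Notum, which removes the lipid from Wnt ligands, stood at 37.8 to 54.8 CPM in WT, 22.4 to 30.3 in AEG1, 24.7 to 29.4 in MYC and 44.7, 141 and 56.1 in AEG1_MYC livers, so AEG1_MYC overlapped WT and not the single transgenes. Its interaction was 2.30 ± 0.51 (adjusted p = 0.325). The ubiquitin ligases Rnf43 and Znrf3, which clear Wnt receptors, had interactions of 1.18 ± 0.33 and 1.30 ± 0.33 (adjusted p = 0.360 for both). Tcf7, a TCF/LEF factor, had 2.28 ± 0.55 (adjusted p = 0.345). Without AEG1_MYC replicate 1, edgeR called Rnf43 as well, and without replicate 3 it called Wif1, a secreted inhibitor that binds Wnt ligands. DESeq2 called Axin2, Lgr5, Nkd1, Notum, Sp5, Tcf7 and Znrf3, which is 7 of 23 (30.4%), against 1.11% of all genes.

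Beta-catenin (Ctnnb1) and Tcf7l2, a TCF/LEF factor of hepatocytes, were near expectation. Ctnnb1 had 340 CPM expected and 365 observed, an interaction of 0.10 ± 0.14, and Tcf7l2 one of 0.02 ± 0.15. The ligands Wnt2 and Wnt9b and the enhancer Rspo3, which endothelial cells of the central vein supply, stood at -0.45 ± 0.49, 0.45 ± 0.62 and -0.49 ± 0.47. These SEs are too large to place them near expectation or away from it. The same holds for Nkd2 and cyclin D1 (Ccnd1), which are not upstream parts of the pathway. Nkd2, the paralogue of Nkd1, stood at -0.66 ± 0.57 with a mean under 1 CPM in every genotype, and Ccnd1 at 0.80 ± 0.70. The list's median was 0.557 to 1.07 when 1 AEG1_MYC library was left out, 0.770 without replicates 1 and 2, and 0.472 with the clock score as covariate.

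Most pericentral hepatocyte genes were above expectation. Of 26 measured, 23 were above 0 (51.1% of all genes were), and 21 (80.8%, against 9.25% of all genes) had an unadjusted p under 0.05, all of them above. In edgeR over the 12 libraries 0 were called, and DESeq2 called 13. Of the 26, Slc1a2 alone was called by limma voom, with 1 surrogate variable, by edgeR with no robust step and by edgeR without AEG1_MYC replicate 3. The median interaction was 1.82. Glul, glutamine synthetase of the hepatocytes next to the central vein, stood at 1427, 734 and 685 CPM in WT, 643, 568 and 879 in AEG1, 507, 908 and 493 in MYC, and 3064, 15863 and 3070 in AEG1_MYC livers. All 3 AEG1_MYC libraries were above the 9 others, and replicate 2 was far above the other 2. The interaction was 3.97 ± 0.88 (adjusted p = 0.325). Rhbg, the ammonium transporter, stood at 10.5 to 24.1 CPM in the 9 libraries and at 101, 239 and 72.9 in AEG1_MYC livers (2.80 ± 0.58, adjusted p = 0.260). Oat, ornithine aminotransferase, stood at 341 to 1166 CPM in the 9 and at 1924, 4682 and 2186 (2.74 ± 0.61, adjusted p = 0.325).

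The pericentral enzymes of detoxification and bile acid synthesis had smaller values in the same direction. Cyp1a2 stood at 1.59 ± 0.40 (adjusted p = 0.360), Cyp2e1 at 1.04 ± 0.33 (adjusted p = 0.429), and Cyp7a1, which sets the pace of bile acid synthesis, at 1.89 ± 0.52 (adjusted p = 0.360). For Cyp7a1 the MYC libraries were the lowest, at 34.1 to 76.5 CPM, and the AEG1_MYC libraries, at 98.3 to 212, overlapped WT at 76.1 to 165. Aldh1b1, Fitm1 and Pon1 were the 3 members below 0, at -1.497 ± 1.196, -0.17 ± 0.34 and -0.03 ± 0.30. The periportal list also holds Aldh1b1. The median over the list was 1.48 without AEG1_MYC replicate 2, 1.82 without replicate 1 and 1.10 without both. DESeq2 called 13 of the 26 (50%, against 1.11% of all genes), all above, among them Axin2, Car2, Cyp1a2, Cyp7a1, Glul, Gulo, Lect2, Lhpp, Oat, Rhbg, Slc13a3 and Slc1a2. In 13 of the 26 all 3 AEG1_MYC libraries lay above the 9 others, against 3.04% of all genes.

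Periportal genes gave no such pattern, and their value depended on 1 mouse. Of 24 measured, 17 were below 0 (48.9% of all genes were) and 7 above, and 0 had an unadjusted p under 0.05. The median was -0.47. It was 0.0325 without AEG1_MYC replicate 2, and -0.728 and -0.769 without replicates 1 and 3. Cyp2f2 stood at 690 to 1598 CPM in the 9 libraries and at 508, 2.70 and 1039 in AEG1_MYC livers. Cps1, the entry enzyme of the urea cycle, stood at 2765 to 5120 CPM in the 9 and at 3101, 175 and 3436. Hal, histidine ammonia-lyase, stood at 194 to 420 CPM in the 9 and at 108, 1.99 and 273. In each, replicate 2 was the lowest library of all 12 by far.

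Maternally expressed RNAs of the imprinted Dlk1-Dio3 locus had a median of 4.28, the highest of the lists with more than 2 measured members. All 4 measured were above 0 with an unadjusted p under 0.05, and the other 9 symbols of the list were untested. The filter on low counts can pass a gene on its level in 1 genotype alone, so 4 of 4 is a description. With no filter on low counts, 9 of the 13 listed were measured, 7 of them were above 0 and the median was 3.17. Rian, a host of small nucleolar RNAs, stood at 0.488, 1.88 and 2.05 CPM in WT, 5.44, 6.02 and 1.76 in AEG1, 1.90, 1.06 and 1.45 in MYC, and 125, 70.2 and 72.2 in AEG1_MYC livers (4.34 ± 0.78, adjusted p = 0.172). Meg3 stood at 0.610 to 25.0 CPM in the 9 libraries and at 349, 273 and 221 (3.99 ± 1.03, adjusted p = 0.360). Mirg, a host of microRNAs, was at most 0.362 CPM in the 9 and 5.81, 2.34 and 3.47 (5.91 ± 1.40, adjusted p = 0.345). AF357359 stood at 4.23 ± 1.28 (adjusted p = 0.393). Every AEG1_MYC library was above every other for all 4. The 4 transcripts come from 1 locus and are not independent. DESeq2 called all 4, and 1.11% of all genes.

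**Figure D4:**
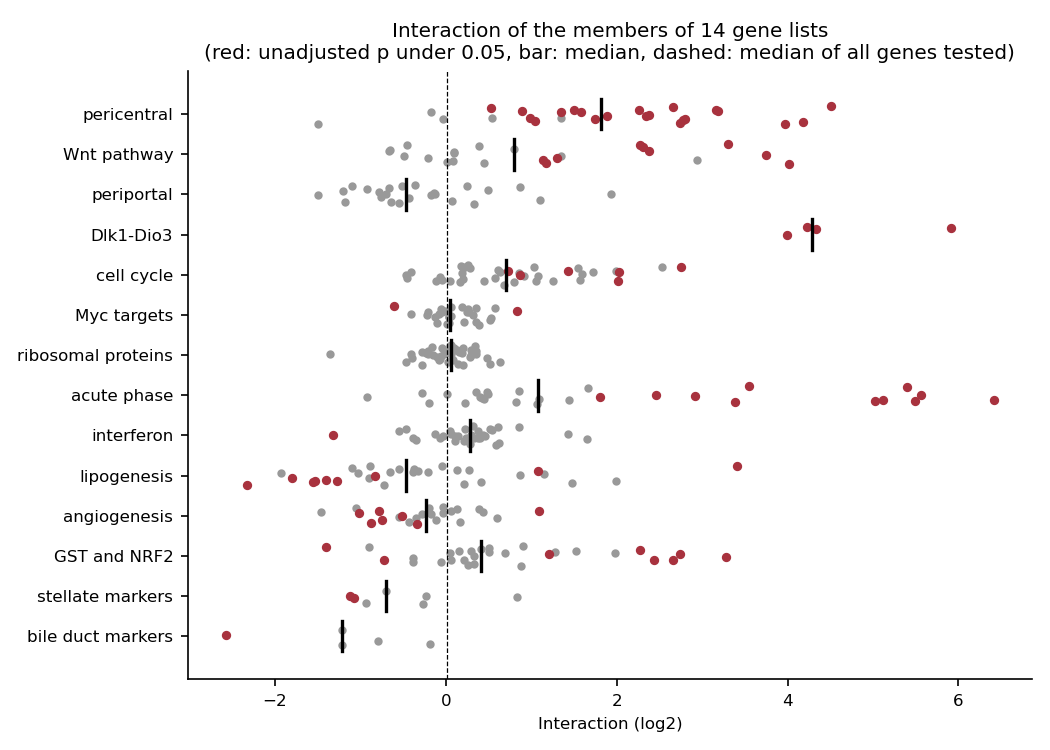
Interaction of each measured member of 14 gene lists, with a red point for an unadjusted p under 0.05, a bar for the list's median and a dashed line for the median of all genes tested. Pericentral genes (median 1.82) and Dlk1-Dio3 RNAs (4.28) lie to the right, and periportal genes (-0.47) and lipogenesis genes (-0.47) to the left.

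Direct Myc targets and ribosomal proteins stood near expectation, and cell-cycle genes above it. Of 30 Myc targets 20 were above 0 and the median was 0.06, with Rcl1 at 0.84 ± 0.25 and Mtap at -0.60 ± 0.26 as the 2 members with an unadjusted p under 0.05. Of 44 ribosomal protein genes 26 were above 0 (median 0.06), and none had an unadjusted p under 0.05. When 1 library was left out, the median ran from -0.0255 to 0.244 for Myc targets and from -0.118 to 0.133 for ribosomal proteins, so neither list had a stable sign. Reads of ribosomal proteins are uncertain because of their many pseudogenes. Of 38 cell-cycle genes 32 were above 0 (median 0.70), where 51.1% of all genes were, and 6 had an unadjusted p under 0.05 (15.8%, against 9.25% of all genes). Of these 38, 0 were called by edgeR and 1, Cdk2, by DESeq2 (2.63%, against 1.11% of all genes). Cdk2, a kinase of S-phase entry, stood at 12.5 to 16.6 CPM in the 9 libraries and at 18.7, 21.96 and 17.8 in AEG1_MYC livers, with an interaction of 0.73 ± 0.18 (adjusted p = 0.352). The mitotic cyclin Ccnb2 stood at 0.362 to 1.98 CPM in the 9 and at 2.54, 6.37 and 2.50 (2.75 ± 0.84, adjusted p = 0.407). The proliferation marker Mki67 stood at 1.34 to 6.89 CPM in the 9 and at 11.5, 20.2 and 11.3 (1.57 ± 0.81, adjusted p = 0.585). The median of the list was 0.417 without AEG1_MYC replicate 2 and 0.243 without replicates 1 and 2.

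Acute-phase genes split by mouse. Of 28 measured, 25 were above 0, where 51.1% of all genes were, and 11 had an unadjusted p under 0.05 (39.3%, against 9.25% of all genes), with a median of 1.08. Without AEG1_MYC replicate 1 the median was -0.145 and 12 were above 0. In edgeR 0 were called, and without AEG1_MYC replicate 3 it called Il1r1 and Socs3 (7.14%, against 0.230% of all genes). DESeq2 called Il1r1, Il6ra, Mt1 and Socs3 (14.3%, against 1.11% of all genes). Saa1, serum amyloid A, stood at 18.7 to 45.0 CPM in the 9 libraries and at 3331, 4.30 and 41.02 in AEG1_MYC livers (5.03 ± 2.19, adjusted p = 0.527). Mt1, metallothionein, stood at 5.91 to 18.97 CPM in the 9 and at 509, 35.4 and 16.2 (5.40 ± 1.42, adjusted p = 0.360). The cytokine receptor Il1r1 was high in 2 mice, at 330 and 311 CPM with 50.9 in replicate 3, against 25.4 to 73.7 in the 9 (3.39 ± 0.79, adjusted p = 0.345). Socs3, the feedback inhibitor of IL-6 signalling, stood at 5.57 to 9.81 CPM in the 9 and at 22.6, 28.4 and 10.9 (1.804 ± 0.415, adjusted p = 0.345). Summed CPM of 5 neutrophil markers was 59.7 in AEG1_MYC replicate 1 and at most 3.81 in the other 11 libraries, and that of 7 Kupffer markers was 751 there and at most 520 elsewhere. The part of these cells in the acute-phase values was not tested.

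Genes of fatty acid synthesis lay below expectation more often than above it, and this rested on 1 AEG1 library. Of 30 lipogenesis genes, 20 were below 0 (48.9% of all genes were) and 10 above, with a median of -0.47. At an unadjusted p under 0.05 there were 7 below and 2 above (together 30%). Of all genes, 3.58% were below and 5.67% above at that threshold. Without AEG1 replicate 3, 15 of the 30 were above 0 and the median was 0.0116, and without AEG1_MYC replicates 1 and 2 in turn the median was -0.718 and -0.27. DESeq2 called 1 of the 30, Pnpla2 (3.33%, against 1.11% of all genes), which lay above expectation. Elovl6, the fatty acid elongase, stood at 159, 279 and 234 CPM in WT, 347, 698 and 949 in AEG1, 192, 248.9 and 183 in MYC, and 231, 103 and 198 in AEG1_MYC livers. Only the AEG1 libraries lay apart, above all 9 others. Its interaction was -1.801 ± 0.537 (adjusted p = 0.384). Fasn, fatty acid synthase, stood at 1480, 2608 and 3701 CPM in AEG1, 1429 to 1787 in WT, 1303 to 1816 in MYC and 783, 547 and 1368 in AEG1_MYC livers (-1.53 ± 0.51, adjusted p = 0.457). Mlxipl, the glucose-sensing factor ChREBP, stood at -0.82 ± 0.33, and Pnpla2, the triglyceride lipase, at 1.08 ± 0.27 (adjusted p = 0.360), with 75.1 to 88.1 CPM in AEG1_MYC livers over 40.0 to 65.9 in the 9.

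Organic ion transporters and glutathione transferases held single genes of large interaction in lists with medians of -0.15 and 0.41. Slc22a12, the urate transporter URAT1, was at most 0.153 CPM in the 9 libraries, with 0 counts in 3 of them, and 32.7, 47.2 and 1.67 CPM in AEG1_MYC livers (adjusted p = 0.429). Slc22a3, an organic cation transporter, stood at 1.42 to 4.36 CPM in the 9 and at 36.7, 37.6 and 2.66, so that replicate 3 lay inside the range of the others (4.40 ± 1.04, adjusted p = 0.345). Gstm2 stood at 19.4 to 51.8 CPM in the 9 and at 105, 283 and 65.9 (2.44 ± 0.70, adjusted p = 0.370). Gstm genes have near-identical copies, so their counts are uncertain. Of 24 transporter genes 10 were above 0, and of 29 glutathione and NRF2 genes 23 were, where 51.1% of all genes were. Without AEG1_MYC replicate 2 these were 13 of 24 (median 0.0751) and 18 of 30 (median 0.103). The transporter median was -0.355 without AEG1_MYC replicate 3, -0.0499 without replicate 1, -0.0654 without WT replicate 2, -0.0395 without AEG1 replicate 1 and -0.0958 without MYC replicate 2, and the glutathione median was 0.678 without AEG1_MYC replicate 1. DESeq2 called 3 of the transporters (12.5%), Slc22a12 and Slc22a3 among them, and Gstm2 and Abcc4 of the other list (6.9%), against 1.11% of all genes. Without AEG1_MYC replicate 3, edgeR called Slc22a12 and Slc22a3 (8.33%) and Abcc4 (3.45%), against 0.230% of all genes.

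Markers of non-hepatocyte cells differed by cell type, and several of their medians rested on 1 library. All 5 measured cholangiocyte markers were below 0 (median -1.21), 6 of 7 stellate markers (median -0.70) and 5 of 6 endothelial markers (median -0.23), against 48.9% of all genes. All 3 measured T and NK cell markers were above 0 (median 0.61), and 1 of 5 B cell markers (median -0.48). Both sets had low counts. Over the 12 libraries summed CPM was 0.527 to 4.27 for 5 T and NK markers, 3 of them under 1 CPM throughout, and 3.05 to 13.5 for 5 B cell markers. Of 7 Kupffer markers 5 were above 0 (median 0.08), and both measured neutrophil markers were (median 4.81). Without AEG1_MYC replicate 1 the Kupffer median was -0.644 with 0 of 7 above 0, and the neutrophil median was 1.01. The Kupffer median ran from -0.644 to 0.549 over all 12 fits with 1 library left out. Without MYC replicate 3 the stellate median was -0.252 and the cholangiocyte median -0.727. The endothelial median was -0.104 without MYC replicate 2, -0.141 without WT replicate 3, -0.422 without WT replicate 1 and -0.39 without AEG1_MYC replicate 1. For B cell markers it was 0.124 without AEG1 replicate 3, with 4 of 5 above 0, -0.827 without AEG1 replicate 1, -0.959 without AEG1_MYC replicate 2 and -0.134 without AEG1_MYC replicate 3. For T and NK markers it ran from 0.0453 (without WT replicate 1) to 2.17 (without AEG1 replicate 3). Kdr, the VEGF receptor of sinusoids, stood at 48.5 to 58.1 CPM in WT, 65.5 to 81.1 in AEG1, 55.4 to 62.1 in MYC and 40.9 to 55.3 in AEG1_MYC livers (-0.75 ± 0.19, adjusted p = 0.356), and DESeq2 called it. Flt1, another VEGF receptor, stood at -0.51 ± 0.14 (adjusted p = 0.360). Reln, a marker of stellate cells, stood at 85.9 to 98.8 CPM in AEG1 and 33.2 to 46.6 in AEG1_MYC livers (-1.13 ± 0.35, adjusted p = 0.429). Sox9, of bile duct cells, stood at 3.14 to 21.8 CPM in the 9 libraries and at 3.50, 0.889 and 2.73 (-2.57 ± 1.07, adjusted p = 0.511). Summed CPM of the endothelial markers was 238 to 303 in AEG1_MYC and 219 to 293 in WT livers, and that of the stellate markers 214 to 269 and 299 to 372. For 6 cholangiocyte markers it was 28.1 to 71.9 in AEG1_MYC, 62.1 to 82.2 in MYC and 41.8 to 75.6 in WT livers. The median log2 fold change of the 5 measured ones against WT was 0.92 in MYC and -0.15 in AEG1_MYC livers.

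The 3 AEG1_MYC mice departed from expectation to different extents. The level differed from that expected from the single transgenes by at least 1 (log2) in 11.9% of genes in replicate 1, 18.8% in replicate 2 and 8.15% in replicate 3. The median difference was 1.66, 2.28 and 1.197 for pericentral genes, 0.88, 0.88 and 0.72 for Wnt genes and 4.56, 3.95 and 3.78 for Dlk1-Dio3 RNAs, so these 3 lists were above expectation in every mouse. The lists were chosen with earlier results of these data known, and the Wnt and pericentral lists share Axin2, so this is a description. For acute-phase genes it was 2.05, -0.34 and 0.06, and for periportal genes -0.09, -2.37 and 0.01. For lipogenesis genes it was -0.09, -1.19 and -0.49.

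**Figure D5:**
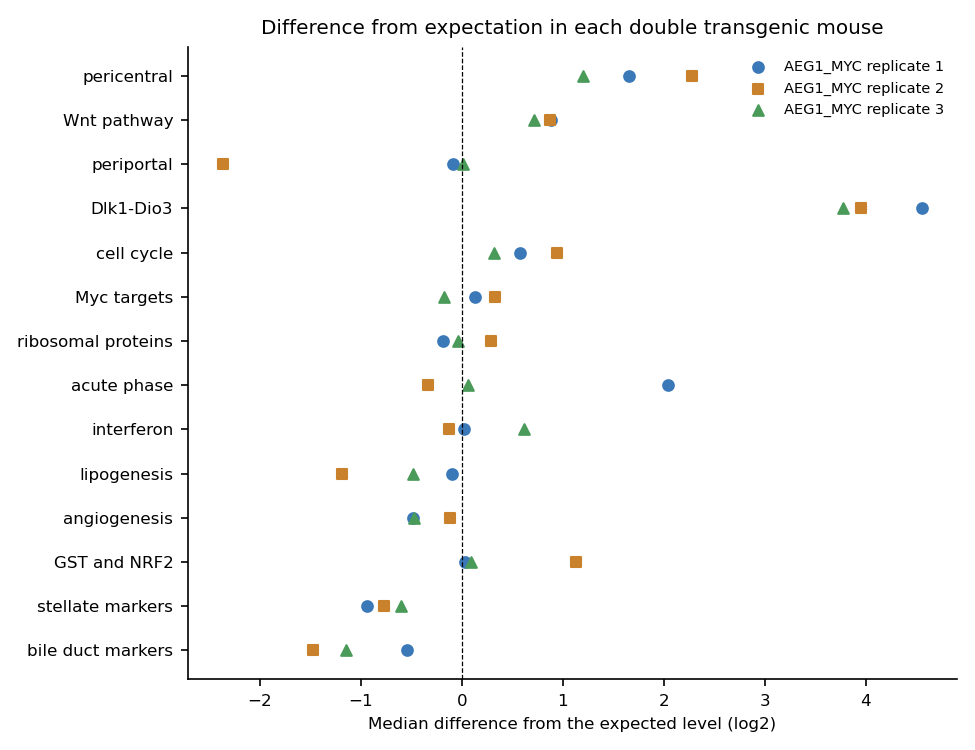
Median difference between the observed level and the level expected from the single transgenes (log2) for each gene list, with 1 mark for each AEG1_MYC mouse. The marks of Dlk1-Dio3 RNAs lie at 3.78 to 4.56, and those of acute-phase genes spread from -0.34 to 2.05.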

How the data were processed

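The authors deposited raw counts of reads for 22609 genes, as 1 file for each of the 12 libraries, along with 5 lines of totals. CASAVA 1.8.2, TopHat2 2.0.7, HTSeq and build mm9 are named per the submitters' processing notes. HTSeq's version, annotation and strand setting are not given in the sources used here. Overlapping and antisense genes therefore cannot be told apart, and genes with near-identical copies are uncertain. Per the labels' protocols, libraries were made from total liver RNA with a TruSeq kit.

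The lines of totals were dropped (no-feature reads were 11.5% to 15.5% of uniquely aligned reads). The gene counts were tested with edgeR 4.0.16 in R 4.3.3: filterByExpr (13684 genes kept), TMM scaling, 1 coefficient per genotype over 12 libraries, robust quasi-likelihood F test, two-sided. The interaction is the log2 fold change of AEG1_MYC over MYC less that of AEG1 over WT. Adjustment was by Benjamini and Hochberg over the 13684 genes, with a call at an adjusted p under 0.05. SE is the size of the log2 value over the square root of F. The expected AEG1_MYC level is the product of the AEG1 and MYC levels over the WT level, from the fit. CPM values are counts brought to a common library total with the TMM-scaled library sizes. Nothing beyond the labels says how far the 3 samples of a genotype were separate, so p-values measure the spread between these samples.

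Named genes are Myc and Mtdh, called genes filled up to 24 with the lowest interaction p (mean CPM of at least 1), and the 2 members of lowest p in each of 39 gene lists. Any further gene was picked with its values in view. A few results under this rule are left unreported. The members and lists were chosen with earlier results of these data known. Lists are described by counts and medians, without a test of the list. The test was run on simulated data first. Alternatives tried were scaling by RLE or the upper quartile, 2 other filters on low counts, no robust step, DESeq2 1.42.0, voom of limma 3.58.1 with quality weights, a surrogate variable (sva 3.50.0), a clock score as covariate, a linear scale, and leaving out libraries. Promoter sequences are RefSeq's of GRCm38.p6, matched by symbol or synonym for 10774 of the tested genes. No coordinates of the files' build mm9 were used.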

Additional observations from a re-analysis of the deposited data

Results flagged for a closer look

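The effect of AEG1 differed between livers with and without MYC for 3 genes, by the test of the difference itself. The difference was 4.02 (log2) for Nkd1, 1.86 for Tlr12 and 4.65 for Gm106, each higher with MYC in all 3 AEG1_MYC mice. Groups of 3 mice are too small for a check of outlying samples.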

How the results depend on the processing

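The count of 3 genes was 3 with RLE scaling, 2 with upper-quartile scaling (Nkd1 and Tlr12), 4 with no filter on low counts and 3 with a CPM filter. It was 5 with no robust step, 5 with limma voom (Gm106 not among them) and 8 with 1 surrogate variable. With the clock score as covariate it was 1 (785 genes at an unadjusted p under 0.05). In that edgeR fit the adjusted p was 0.122 for Tlr12 and 0.155 for Gm106, with interactions of 1.81 and 4.54 close to those without the score. DESeq2 called 152 genes, the 3 among them. Leaving out 1 library gave 1 to 32 calls, and 1 call without AEG1_MYC replicates 1 and 2 together, a fit that takes the spread of the lone AEG1_MYC library from the 3 further genotypes. The cause of these differences was not tested, beyond the smaller number of samples in the fits with fewer libraries. No paired analysis was possible because the labels give mouse numbers that no 2 genotypes share.

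Of the values of the 92 named genes under the alternatives with an adjusted p, 1917 kept direction and side of the threshold, 62 newly passed it, 26 no longer passed it and 14 changed sign, none of them in a called gene. With the clock score, Npas2 stood at 1.68 and Arntl at 0.98. Both are day-phase genes that enter the score, so these values are no check of them. When 1 library was left out, Marco ranged from -0.41 (without AEG1_MYC replicate 1) to 6.40, Cd5l from -0.20 (the same library) to 1.47, Mtdh from -0.0597 (the same library) to 0.114, Gzma from -0.23 (without WT replicate 1) to 2.50, and Ms4a1 from -1.09 to 0.12 (without AEG1 replicate 3). Cela1 ranged from -0.43 (without AEG1_MYC replicate 3) to 0.55 and stood at -0.09 without AEG1 replicate 3. Without AEG1_MYC replicates 1 and 2 together, S100a9 stood at -0.28, S100a8 at -0.0823, Marco at -0.37, Gzma at -0.83 and Mtdh at -0.0805. On a linear CPM scale, where the sum of the single effects is the expectation, 91 of the 92 kept their sign and Gzma stood at -0.01026 CPM. The median SE of 0.294 and 3 mice per genotype limit what the test can call.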

Other observations

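Neither edgeR nor DESeq2 called a clock gene, and most lay to 1 side of expectation. Of 12 night-phase genes 11 were above 0 (median 1.08), and all 6 day-phase genes were below 0 (median -1.59). When 1 library was left out, 9 to 12 of the night-phase genes were above 0, and their median ran from 0.449 (without WT replicate 3) to 3.14 (without MYC replicate 3). It was 2.48 without AEG1 replicate 3, 0.676 and 0.648 without AEG1 replicates 1 and 2, 0.619 and 0.68 without MYC replicates 1 and 2, and 0.682 without AEG1_MYC replicate 3. The day-phase median was -0.851 without AEG1 replicate 2, with all 6 below 0. Arntl (Bmal1), a core activator of the clock, stood at 11.1 to 35.8 CPM in WT, 1.91 to 54.5 in AEG1, 4.27 to 49.7 in MYC and 2.78, 8.24 and 2.09 in AEG1_MYC livers (interaction -3.23 ± 1.53, adjusted p = 0.548). Per1, a repressor, stood at 1.97 to 67.9 CPM in the 9 libraries with at most 1 transgene and at 74.0, 45.5 and 47.6 in AEG1_MYC livers (3.055 ± 1.504, adjusted p = 0.567). The labels give no time of collection.

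Of 29 nuclear genes of oxidative phosphorylation 25 were below 0, where 48.9% of all genes were, with a small median of -0.13, and Atp5o stood at -0.41 ± 0.18 (adjusted p = 0.519). The median was -0.0806 without WT replicate 1, -0.0513 without AEG1 replicate 2, and -0.00744 without AEG1_MYC replicates 1 and 2, where 14 of the 29 were above 0. Of 24 male-biased liver genes 19 were below 0 (median -0.49), and of 19 female-biased genes 12 were above (median 0.79). Without AEG1_MYC replicates 1 and 2 these medians were 0.0798 and -0.341, and without replicate 2 alone -0.147 and 0.153. The male-biased median was -0.326 without AEG1 replicate 1 and -1.22 without AEG1_MYC replicate 3, and the female-biased one 0.434 and 0.199 without WT replicates 2 and 3 and 0.435 without AEG1_MYC replicate 1. Hsd3b5, a male-biased steroid dehydrogenase, stood at 106 to 297 CPM in the 9 libraries and at 5.32, 1.66 and 152 in AEG1_MYC livers, and edgeR called it without AEG1_MYC replicate 3. Of 22 genes of the stress response of the endoplasmic reticulum and ATF4 15 were below 0 (median -0.34, and -0.529 and -0.524 without WT replicate 2 and AEG1 replicate 3), while Trib3, a pseudokinase induced by ATF4, stood at 3.73 to 13.4 CPM in the 9 and at 9.42, 31.5 and 23.0 (2.62 ± 0.73, adjusted p = 0.360) and was called by DESeq2.

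The neutrophil markers S100a8 and S100a9 were 23.4 and 24.1 CPM in AEG1_MYC replicate 1 and at most 1.59 in the other 11 libraries. The Kupffer cell lectin Clec4f stood at 260, 30.2 and 82.3 CPM in AEG1_MYC replicates 1 to 3 and at 57.8 to 183 in the 9.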
